A study of Mus musculus with 6 samples.

Results

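Kit, Kitl, Ano1, Etv1, Prkcq and Cd44, 6 genes linked to interstitial cells of Cajal, were examined in sorted cells of the newborn mouse bladder. Their probe sets were taken wherever the platform annotation gave a probe set 1 gene symbol equal to a listed gene. This gave 13 probe sets for 5 of the 6 genes, out of 45037 probe sets for 18193 genes on the array: 2 for Kit, 4 for Kitl, 2 for Ano1, 1 for Prkcq and 4 for Cd44. Etv1, a transcription factor of the ETS family, is listed on 3 probe sets, each of which also carries the symbol of a gene model, so none could be assigned to it and no value is given for it. All cells came from male FVB/N mice at postnatal day 2 that carried a pair of transgenes, EGFP driven by the promoter of smooth muscle gamma actin (SMGA, endogenous gene Actg2) and EYFP driven by that of smooth muscle alpha actin (SMAA, endogenous gene Acta2). Dissected tissue was digested with enzymes and sorted into EGFP+EYFP- cells (called single-positive here, 3 arrays) and EGFP+EYFP+ cells (double-positive, 3 arrays). The labels give detrusor muscle, the smooth muscle layer of the bladder wall, as the source of both, and record that samples were not pooled. Whether the 3 arrays of a group came from different animals is not stated, and the spread on which every p-value rests may therefore be technical.

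Interstitial cells of Cajal were described in the gut, where they pace the muscle and pass nerve signals to it. They depend on KIT, a receptor tyrosine kinase, and on its ligand, stem cell factor, encoded by Kitl. ANO1 is the calcium-activated chloride channel that carries their pacemaker current, ETV1 is a transcription factor stabilised by KIT signals, PRKCQ is protein kinase C theta and CD44 is a receptor for hyaluronan. In the bladder, cells that resemble them have been described between muscle bundles and beneath the urothelium. None of these genes is exclusive to such cells: mast cells and melanocytes also need KIT, T cells use PRKCQ, and CD44 is made by leukocytes, epithelium and connective tissue.

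The question was how transcripts of these genes differ between the single-positive and the double-positive population. Each probe set had a signal intensity in arbitrary units on every array. Differences are double-positive minus single-positive on the scale of log2(signal + 25.01), where the added value is the 20th percentile of all signals, which understates the change of dim transcripts. They were tested with limma over 27022 probe sets above a filter on dim signals (a mean log2 value over 6.81, equal to a signal of 87.5), and a call means a Benjamini-Hochberg adjusted p under 0.05 over all of these. Of the 13 member probe sets 12 were tested and 1, of Cd44, was too dim. In bulk samples of this kind, fewer cells of a type and less transcript per cell cannot be told apart.

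Median signal on the arrays lay between 147 and 199.8. Over probe sets, log2 signals correlated (Pearson's r) at 0.92 to 0.942 for pairs from different groups, at 0.935 to 0.948 for double-positive pairs and at 0.95 to 0.956 for single-positive pairs. Actg2, the endogenous gene of the EGFP promoter, had signals of 51399 to 68165 in the single-positive and 7404 to 13959 in the double-positive arrays. Of the 10 detrusor smooth muscle markers tested, all 10 had a called probe set that was lower in the double-positive arrays, and the signals summed over that list of 11 ran from 76225 to 110349 there, against 241814 to 314884 in the single-positive arrays. Acta2, the endogenous gene of the EYFP promoter, was among them on 1 dimmer probe set. That probe set had a log2 fold change of -4.31 (adjusted p = 4.84e-04). The dimmest Acta2 probe set had -3.07 and was not called (adjusted p = 0.0766), with groups that did not overlap. The brightest had -0.07 (adjusted p = 0.931), and its suffix _s_at marks sequence that can be shared with transcripts of other genes. Neither population lacked muscle transcripts.

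Prkcq had lower signals in the double-positive cells and was the member probe set that passed the test, which it entered through its single-positive signals alone, since its double-positive level lay under the filter. Kit had lower signals in all 3 double-positive arrays on both of its probe sets but missed the threshold. Ano1 was brighter on average in the double-positive arrays without passing, Kitl was lower on average on each of its 4 probe sets without passing, and the Cd44 probe sets pointed in different directions. In limma 0 of the 12 tested member probe sets were higher and 1 was lower, beside 1.01% higher and 2.42% lower over all tested probe sets. At an unadjusted p under 0.05 the members numbered 1 higher and 4 lower of 12, beside 5.35% higher and 8.28% lower over all tested probe sets. The groups did not overlap for 4 tested member probe sets, all lower in the double-positive arrays. Over all tested probe sets, 10.1% were lower without overlap and 8.57% higher. These 4 were also the 4 lower at an unadjusted p under 0.05: both Kit probe sets, the brightest of Kitl and that of Prkcq. Probe sets of the same gene are not independent. The dimmer Kit probe set, like that of Prkcq, had a double-positive mean under the filter, so the filter favoured its direction. The median difference was -0.51 over the 12 member probe sets and 0.02 over all probe sets tested.

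**Figure D1:**
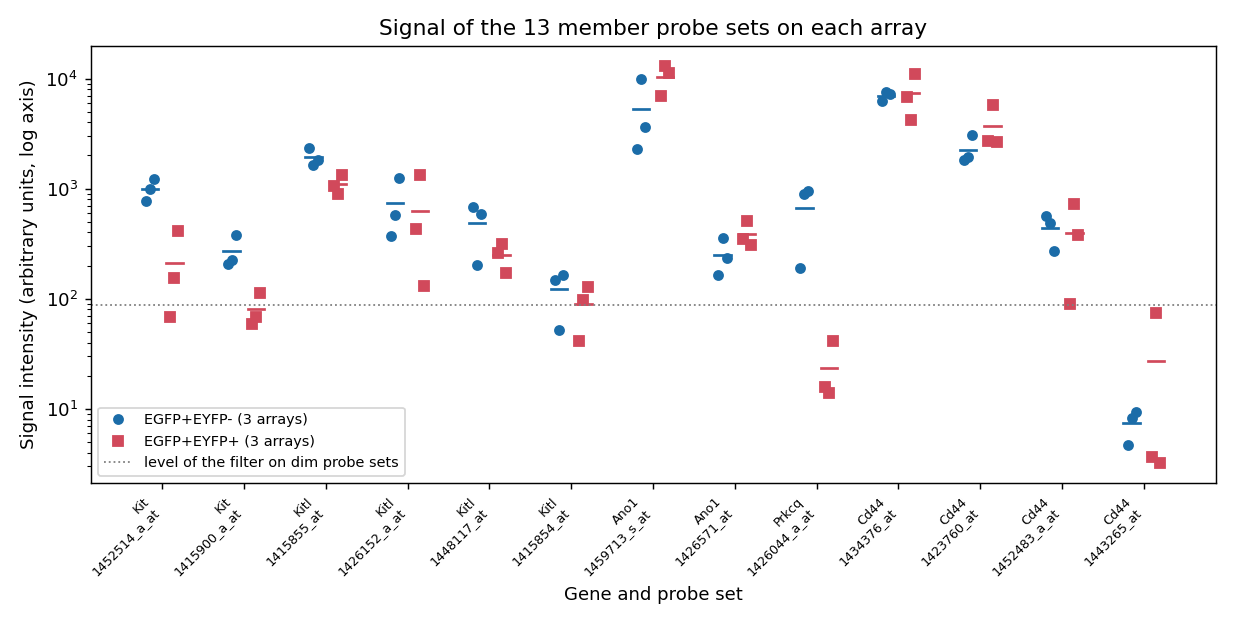
Signal intensity (arbitrary units, log axis) of the 13 member probe sets on the 3 single-positive (circles) and 3 double-positive (squares) arrays; short bars are group means and the dotted line is the level of the filter on dim probe sets. Both Kit probe sets, the Prkcq probe set and the brightest Kitl probe set have groups that do not overlap, with the double-positive arrays lower.

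The sequences upstream of Kit and Prkcq are shown because these genes had the largest differences, both downward, and that of Ano1 because its difference ran the other way. Each is the 250 bases before the RefSeq transcription start (table of build GRCm38.p6), 5′ to 3′ on the gene's strand. Kit lies at chr5:75574737-75574986 on the plus strand (the table holds a start site 4 bases further on as well), Prkcq at chr2:11172132-11172381 on the plus strand and Ano1 at chr7:144738574-144738823 on the minus strand. Capitals mark matches, on either strand, to any of 6 short motifs: the TATA box TATAAA, the GC box GGGCGG, the E-box CANNTG, the ETS core CCGGAA, the GATA site AGATAA and the AP-1 site TGANTCA.
Kit: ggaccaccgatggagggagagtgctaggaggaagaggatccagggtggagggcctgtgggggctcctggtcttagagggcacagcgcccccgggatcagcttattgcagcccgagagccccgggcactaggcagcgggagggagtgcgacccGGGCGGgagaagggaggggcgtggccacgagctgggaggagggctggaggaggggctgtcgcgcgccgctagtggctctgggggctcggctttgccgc
Prkcq: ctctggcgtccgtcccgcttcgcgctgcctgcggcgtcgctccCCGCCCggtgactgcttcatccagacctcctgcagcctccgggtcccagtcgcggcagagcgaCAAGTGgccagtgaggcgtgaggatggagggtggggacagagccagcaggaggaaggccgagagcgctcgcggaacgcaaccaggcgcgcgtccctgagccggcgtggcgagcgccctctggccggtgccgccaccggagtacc
Ano1: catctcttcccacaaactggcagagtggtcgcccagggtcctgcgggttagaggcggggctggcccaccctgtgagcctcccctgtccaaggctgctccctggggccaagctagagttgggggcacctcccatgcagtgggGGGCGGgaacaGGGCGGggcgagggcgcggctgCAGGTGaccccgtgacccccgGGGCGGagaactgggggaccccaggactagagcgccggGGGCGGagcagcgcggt

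The windows of Kit, Prkcq and Ano1 were rich in G and C, at 70.8%, 72.4% and 72%, beside a median of 52.4% over 32851 promoter windows of the same length. A GC box occurred 1 time upstream of Kit, 1 time upstream of Prkcq and 4 times upstream of Ano1, and 32.7% of all windows held at least 1. Prkcq and Ano1 each had 1 E-box and Kit had 0, where 66.2% of all windows held one. None of these 3 windows held a TATA box, an ETS core, a GATA site or an AP-1 site, which occurred in 12.4%, 12%, 9.99% and 6.75% of all windows. Kitl, not printed, had 1 TATA box, 1 ETS core and 3 GC boxes. Cd44, not printed either, had 1 GATA site and the lowest G and C content of the 5 genes, 56.4%. A match is a run of letters, not a bound site.

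The receptor gene came first. The brighter Kit probe set, 1452514_a_at, had signals of 775, 994 and 1226 in the single-positive arrays and 67.6, 155 and 409 in the double-positive arrays. Every double-positive value lay below every single-positive value, with double-positive array 3 well above the other two of its group. The means were 998 ± 226 and 211 ± 177 (SD, n = 3 each), a 4.74-fold ratio of mean signals. The log2 fold change was -2.38 (SE 0.56, 95% interval -3.64 to -1.12), with a adjusted p of 0.0573, just above the threshold.

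The dimmer Kit probe set, 1415900_a_at, had 205, 226 and 381 in the single-positive arrays and 58.9, 68.3 and 114 in the double-positive arrays. The groups again did not overlap, and the double-positive mean on the log2 scale, 6.68, lay under the filter, which the probe set passed through its single-positive signals. The fitted log2 fold change was -1.48 with an SE of 0.44 (adjusted p = 0.136). The suffix _a_at on both marks probe sets that match several transcripts of 1 gene, so they do not separate Kit isoforms. Ranked on its own array, the brighter Kit probe set stood at percentile 69.7 to 73.9 of all probe sets in the single-positive and 36.1 to 63.6 in the double-positive arrays.

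Whether Kit passed depended on the setting. When each gene was represented by its brightest probe set alone, over 13464 genes, Kit had the same log2 fold change of -2.38 (SE 0.54) with a adjusted p of 0.0258. In that fit 1.98% of genes were higher and 4.38% lower, and of the 5 member genes Kit and Prkcq were lower. Over all 17 alternatives, the double-positive arrays were lower for this probe set in 17 and passed in 7, with adjusted p between 0.00934 and 0.204. Since the groups did not overlap, most of these alternatives could not have turned the sign. Without double-positive array 3, which had the highest double-positive Kit signal, the log2 fold change was -2.96 (adjusted p = 0.0129), and without double-positive array 1, which had the lowest, it was -1.85 (adjusted p = 0.141).

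The ligand gene Kitl had 4 probe sets. Its brightest probe set, 1415855_at, had 2328, 1646 and 1821 in the single-positive and 1052, 900.5 and 1324 in the double-positive arrays. The groups did not overlap, with means of 1932 ± 354 and 1092 ± 214 (SD, n = 3 each). The log2 fold change of -0.81 (SE 0.30, 95% interval -1.49 to -0.14) had a adjusted p of 0.250 and was not called.

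The other 3 Kitl probe sets overlapped between the groups. On 1448117_at the signals were 685, 202 and 587 against 258, 316 and 172, a log2 fold change of -0.79 (SE 0.51). On 1426152_a_at they ran from 375 to 1255 and from 129.8 to 1333, so that both the lowest and the highest value were double-positive, and the log2 fold change was -0.56 (SE 0.76). The dimmest, 1415854_at, ran from 52.1 to 163 and from 41.4 to 127. Adjusted p-values of these 3 lay between 0.60 and 0.867. The difference of 1426152_a_at became 0.22 without double-positive array 3, and that of 1415854_at became 0.0045 without double-positive array 1.

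Ano1, the chloride channel, was the member gene whose probe sets were all brighter on average in the double-positive arrays. On its brighter probe set, 1459713_s_at, the signals were 2314, 9958 and 3616 in the single-positive and 6949, 13047 and 11215 in the double-positive arrays. Single-positive array 2 stood above the lowest double-positive array, so the groups overlapped. The means were 5296 ± 4089.6 and 10404 ± 3129 (SD, n = 3 each), a 1.96-fold ratio. The log2 fold change of 1.20 (SE 0.48, 95% interval 0.11 to 2.29) had a adjusted p of 0.306.

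The dimmer Ano1 probe set, 1426571_at, had 165, 355 and 234 against 349.6, 507 and 307, and single-positive array 2 again stood above the lowest double-positive value. The fitted log2 fold change was 0.61 with an SE of 0.43 (adjusted p = 0.642). Array 2 was the highest of its group on both probe sets in both populations. Without single-positive array 2 the brighter probe set had a log2 fold change of 1.79, with a adjusted p of 0.0524, and without single-positive array 1 one of 0.74. The suffix _s_at of the brighter probe set marks sequence that can be shared with transcripts of other genes, while the dimmer one carries no such mark. Both had a difference above 0 in every alternative run, and neither passed in any.

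**Figure D2:**
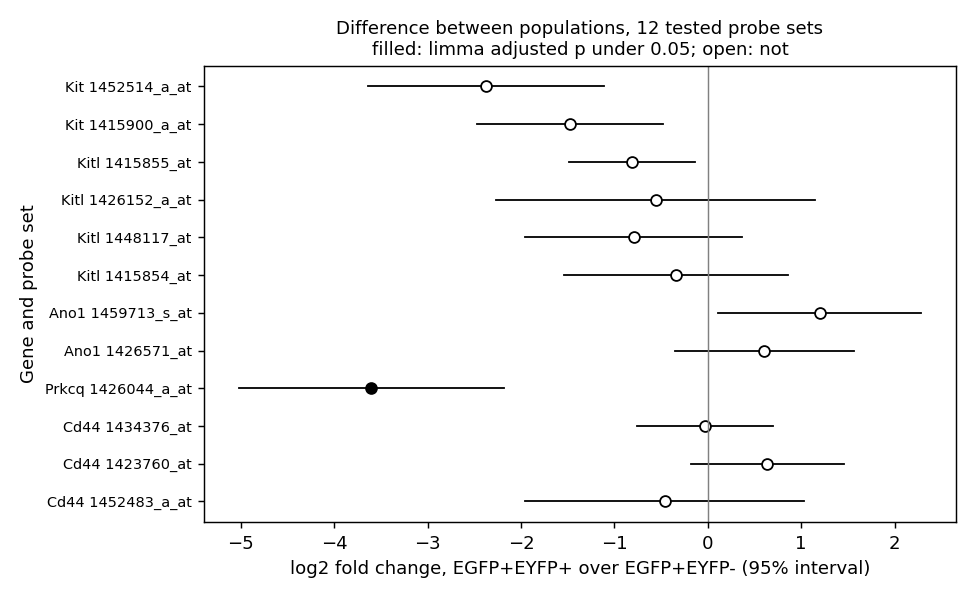
Difference between populations (log2 fold change, double-positive over single-positive) of the 12 tested member probe sets, with points for the estimate and bars for the 95% interval of the moderated fit; filled points passed a adjusted p of 0.05. Prkcq at -3.60 is the filled point, Kit at -2.38 and -1.48 lies below 0 without passing, and the 2 Ano1 probe sets lie above 0 without passing.

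Prkcq, the kinase gene, had the largest difference. Its single probe set, 1426044_a_at, had signals of 188, 886 and 947 in the single-positive arrays and 15.7, 14.0 and 41.2 in the double-positive arrays. All 3 double-positive signals lay below the level of the filter, at percentile 10.2 to 28.0 of their arrays, and single-positive array 1 stood well under the other two of its group. The means were 674 ± 421 and 23.7 ± 15.2 (SD, n = 3 each). No ratio is given, since the double-positive signals lay under the filter. The log2 fold change was -3.60 (SE 0.63, 95% interval -5.02 to -2.18, adjusted p = 0.0158).

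The size of the Prkcq difference rests on the added value, since the double-positive signals are close to it. It was -4.62 with an added value of 1 and -2.44 with 100, and it passed with either. The call was lost in limma when any of 4 arrays was left out: adjusted p was 0.0803 without single-positive array 2, 0.0781 without single-positive array 3, 0.0559 without double-positive array 1 and 0.0509 without double-positive array 2. The log2 fold change stayed between -4.32 and -3.22 without any 1 array.

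Cd44, the hyaluronan receptor, was bright in both populations. Its brightest probe set, 1434376_at, had 6250.4, 7472 and 7268 against 6805, 4242 and 11014, with the lowest and the highest value both double-positive. The log2 fold change was -0.03 (SE 0.32, 95% interval -0.76 to 0.69, adjusted p = 0.984). That interval allows a change of up to 0.76 on the log2 scale downward, and its sign turned under median centring (0.02).

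The next Cd44 probe set, 1423760_at, had 1809, 1947 and 3043 against 2697, 5703 and 2646, a log2 fold change of 0.64 (SE 0.36, adjusted p = 0.526). On 1452483_a_at the signals were 564, 492 and 271 against 90.2, 720.4 and 377, a log2 fold change of -0.46 (SE 0.66, adjusted p = 0.854). Double-positive array 2 was the highest of its group on both of these and the lowest on the brightest, so the Cd44 probe sets did not vary together. The untested probe set 1443265_at had signals of at most 9.43 in 5 arrays and 74.8 in double-positive array 2 (two-sided exact permutation p = 1, the design allowing no p under 0.1).

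Genes whose log2 values followed a member most closely were ranked by the root mean square difference between profiles centred over the 6 arrays, among 12787 other genes. Nearest to Kit were Osm (0.170), Ptchd1 (0.225) and Retreg1 (0.232), beside a median of 1.43 over all genes. The smallest of so many distances over 6 arrays lie under the median by selection, so the median does not show how unusual they are. Osm encodes oncostatin M, a cytokine of the interleukin 6 family. Nearest to Prkcq were Esm1 (0.518), Clec1a (0.532) and Clca3a2 (0.582), beside a median of 2.00, so its nearest neighbours were less close than those of Kit. Nearest to Ano1 were Rhd (0.254), Pgr (0.281), the progesterone receptor, and Tecpr2 (0.288). Nearest to Kitl were Iba57 (0.0671), Ppp2r3a (0.0761) and Dip2c (0.0865), and nearest to Cd44 were Wsb1 (0.0775), Serf1 (0.0853) and Nfx1 (0.0921), where small differences between arrays make many profiles alike.

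The genes around the members were read from the same fit, a gene counting as called where at least 1 of its tested probe sets passed. Over all 13464 genes tested 1.57% were higher and 3.64% lower on this count, and 8.04% were higher and 12% lower at an unadjusted p under 0.05. Of 19 genes of KIT signalling, such as Grb2, Pik3r1 and Stat5a, 0 passed in either direction in limma, with 2 higher and 1 lower at an unadjusted p under 0.05 and a median difference of -0.10. Next were Etv5, a relative of Etv1, and the Sprouty, Dusp and Spred genes, which restrain ERK signals. Of these 8 genes 0 passed, with 2 higher and 1 lower unadjusted. Of 4 ADAM protease genes, among them Adam17 and Adam10, which can release membrane proteins, 0 passed and 1 was lower unadjusted. Of the other anoctamins 2 were bright enough to be tested, Ano6 and Ano10, and 0 passed, also at an unadjusted p under 0.05. The median differences of these last 3 lists were -0.08, -0.24 and 0.05, beside 0.02 over all genes by their brightest probe set.

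Calcium handling, which drives the ANO1 current in pacemaker cells, gave 0 higher and 2 lower of 12 genes tested, with a median difference of -0.31. At an unadjusted p under 0.05, 1 was higher (Atp2b1) and 6 were lower, among them Ryr2 and Cacna1c. Over all genes tested the shares were 8.04% and 12%. Ryr3, a calcium release channel, fell from 3069 ± 316 to 369 ± 436 (SD, n = 3 each), a log2 fold change of -3.69 (SE 0.77, adjusted p = 0.0349). Leaving out a single-positive array, whichever it was, or double-positive array 2 ended the call (adjusted p up to 0.128). It was also lost under quantile normalization (0.0509), with an added value of 1 (0.0569), with no filter (0.0648) and with no variance trend (0.0913), and held in 8 of 16 other settings. Atp2a2, the calcium pump of the endoplasmic reticulum, had a log2 fold change of -2.48 (SE 0.24, adjusted p = 0.00124) on the probe set of smallest p and passed on another, while its brightest had -0.20 (adjusted p = 0.612).

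Among 6 other protein kinase C genes tested, Prkcb was lower and the remaining 5 did not pass, with a median difference of -0.31. At an unadjusted p under 0.05, 0 were higher and 2 lower, Prkcb and Prkch. Prkcb, the beta isoform, fell from 27394 ± 3609 to 12615 ± 2615 (SD, n = 3 each), with a log2 fold change of -1.13 (SE 0.19, adjusted p = 0.0135). Leaving out a single-positive array, whichever it was, ended the call (adjusted p up to 0.0709), as did median centring (0.109) and a fit with no variance trend (0.103). Of 13 genes of hyaluronan and CD44 biology, 2 were lower and 11 did not pass, with a median difference of 0.01. Unadjusted, 3 were higher and 3 lower. Mmp9, a matrix protease, had a log2 fold change of -1.77 (SE 0.35, adjusted p = 0.0281), and Lyve1, a hyaluronan receptor of lymphatic vessels and some macrophages that is also in the endothelial list used here, had -3.30 (SE 0.44, adjusted p = 0.00477). The Mmp9 call was lost when array 1 or array 2 of either population was left out (adjusted p up to 0.121), under median centring (0.0684) and with the replicate number as a block (0.0558). The hyaluronan synthase genes Has1, Has2 and Has3 did not pass.

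Of 9 further genes reported in interstitial cells of Cajal of the gut, 2 rose and 7 did not pass, with a median difference of 0.13. At an unadjusted p under 0.05, 2 were higher and 1 lower. Tbx3, a T-box transcription factor, had 1187, 1802 and 2919 in the single-positive and 7734, 8727 and 11180.5 in the double-positive arrays, a log2 fold change of 2.29 (SE 0.33, adjusted p = 0.00675). The other tested Tbx3 probe set had 1.39 (SE 0.43, adjusted p = 0.155) and was not called. The rest were too dim to be tested and pointed in different directions. Slc4a4, a sodium bicarbonate cotransporter, rose from 1000.4 ± 220.3 to 3379.6 ± 1176 (SD, n = 3 each), a log2 fold change of 1.68 (SE 0.35, adjusted p = 0.0343). Slc4a4 missed the threshold when any 1 array other than double-positive array 2 was left out, with adjusted p up to 0.140, and also under median centring (0.0828), with no filter (0.054) and with no variance trend (0.0739). Its other tested probe sets had log2 fold changes from 0.96 to 1.63 and were not called (adjusted p from 0.37 to 0.779). Thbs4 and Gpr20, both marker genes of the gut cells, did not pass, at log2 fold changes of 0.39 (SE 0.30) for Thbs4 and 0.13 (SE 0.38) for Gpr20. Of the 4 measured markers of Kit-positive interstitial cells (Kit, Ano1, Gpr20 and Thbs4), 0 passed in limma, with 1 higher and 1 lower unadjusted.

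**Figure D3:**
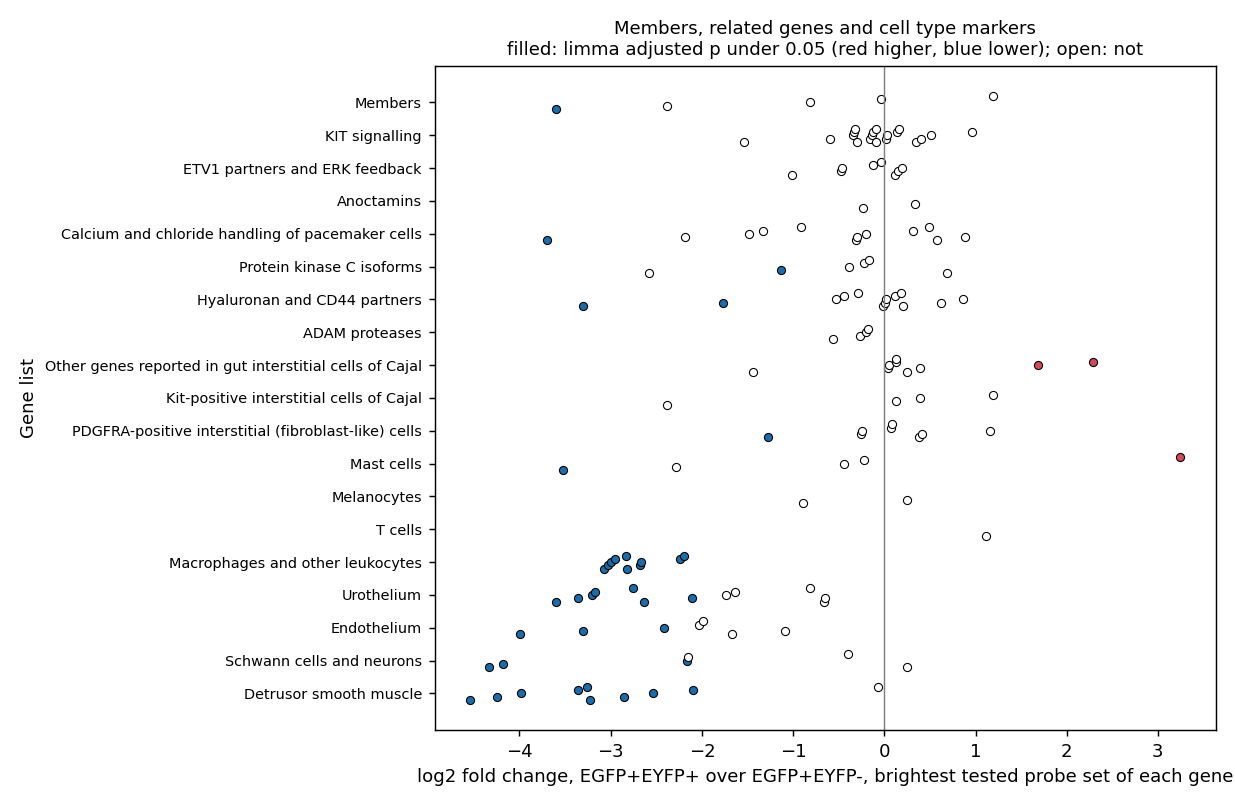
Difference between populations (log2 fold change, double-positive over single-positive) for the brightest tested probe set of each gene, by list; filled points passed a adjusted p of 0.05 on that probe set. All 10 macrophage markers and 9 of 10 smooth muscle markers lie below -2, while the KIT signalling genes centre on -0.10 and the members run from -3.60 to 1.20.

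Markers of other cells that use the member genes are given beside them. Mast cells, which need KIT, had 9 markers on the array, of which 5 were bright enough to be tested, and none was listed at 0. Cpa3, mast cell carboxypeptidase, had 1324, 1522 and 866 in the single-positive and 97.9, 499 and 222 in the double-positive arrays. Its log2 fold change of -2.29 (SE 0.54, adjusted p = 0.0579) was close to that of Kit and missed the threshold, and the gene was picked out after its values were seen.

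Cma1, mast cell chymase, fell from 666 ± 161 to 37.2 ± 24.8 (SD, n = 3 each), a level under the filter on all 3 double-positive arrays. Its log2 fold change of -3.52 (SE 0.45, adjusted p = 0.00365) rests on the added value, being -4.29 with 1 and -2.48 with 100. Hdc, histidine decarboxylase, rose from 15.5 ± 11.8 to 365 ± 146 (SD, n = 3 each), a log2 fold change of 3.24 (SE 0.47, adjusted p = 0.00661), on a probe set with the shared-sequence suffix and from a level under the filter, so that it was 1.97 with an added value of 100. The Hdc probe set entered the test through its double-positive signals alone. It was too dim to be tested with an added value of 1, under a filter at the 60th percentile, or when any double-positive array was left out. Tpsab1 and Gata2 did not pass, and Mcpt4, Tpsb2, Ms4a2 and Fcer1a were too dim to be tested. The summed signal of the list, dominated by Gata2, ran from 4029 to 9742 in the single-positive and from 1749.6 to 6668 in the double-positive arrays. Its part in the Kit difference was not tested.

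Of 6 melanocyte markers, Dct, Tyr, Tyrp1 and Mlana were too dim to be tested, and Pmel and Mitf did not pass, in limma or at an unadjusted p under 0.05. The summed signal of that list ran from 2124 to 2758 and from 1021 to 2037, with none listed at 0. Of 5 T cell markers on the array, Cd3d, Cd3e, Cd3g and Cd2 were too dim to be tested in these samples, with signals of Cd3d between 9.83 and 20.01. Thy1, which connective tissue also makes, had a log2 fold change of 1.12 and did not pass. The summed T cell signal, almost all from Thy1, was 1607 to 2949.7 and 3440.3 to 4899.

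All tested markers of macrophages and other leukocytes, 10 of 10, were called lower in the double-positive arrays, as were those of smooth muscle. The median difference of the leukocyte list was -2.83 (smooth muscle -3.24). The summed signal of the leukocyte list ran from 86611 to 122661 in the single-positive and from 11895 to 18969 in the double-positive arrays, and none was listed at 0. Endothelial markers were lower for 3 of 7, with sums of 30627 to 39524 against 5352 to 8059. The median difference of that list was -2.03, and 7 of 7 were lower at an unadjusted p under 0.05. Urothelial markers were lower for 8 of 12, with sums of 27387 to 45051 against 5078 to 8746. Their median difference was -2.37, and 9 were lower unadjusted. Markers of Schwann cells and neurons were lower for 3 of 6, with sums of 8781 to 10055 against 1184 to 2464. Their median difference was -2.16, and 4 were lower unadjusted, where 12% of all genes tested were. The part of these cells in the Kit, Prkcq, Prkcb and Mmp9 differences was not tested.

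Markers of PDGFRA-positive interstitial cells, a fibroblast-like population, did not follow Kit as a list. Of 8 tested, 1 was lower and 7 did not pass, and Kcnn3 was too dim to be tested. The summed signal of the list, mostly from Dcn, Lum, Col1a1 and Dpt, overlapped between the groups, at 247887 to 287499 and 240159 to 320477. At an unadjusted p under 0.05, 3 were higher (Pdgfra, P2ry1 and Col1a1) and 1 lower, where 8.04% of all genes tested were higher and 12% lower. Pdgfra had a log2 fold change of 0.41 (SE 0.16, adjusted p = 0.276) with groups that did not overlap. Gucy1a1, a subunit of the nitric oxide receptor that muscle and pericytes also make, fell with a log2 fold change of -1.27 (SE 0.20, adjusted p = 0.00863), which missed the threshold without single-positive array 2 (adjusted p = 0.0545) and with no variance trend (0.0597). The other Gucy1a1 probe sets had -1.33 (adjusted p = 0.0545) and -0.70 (adjusted p = 0.533) in limma and were not called.

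**Figure D4:**
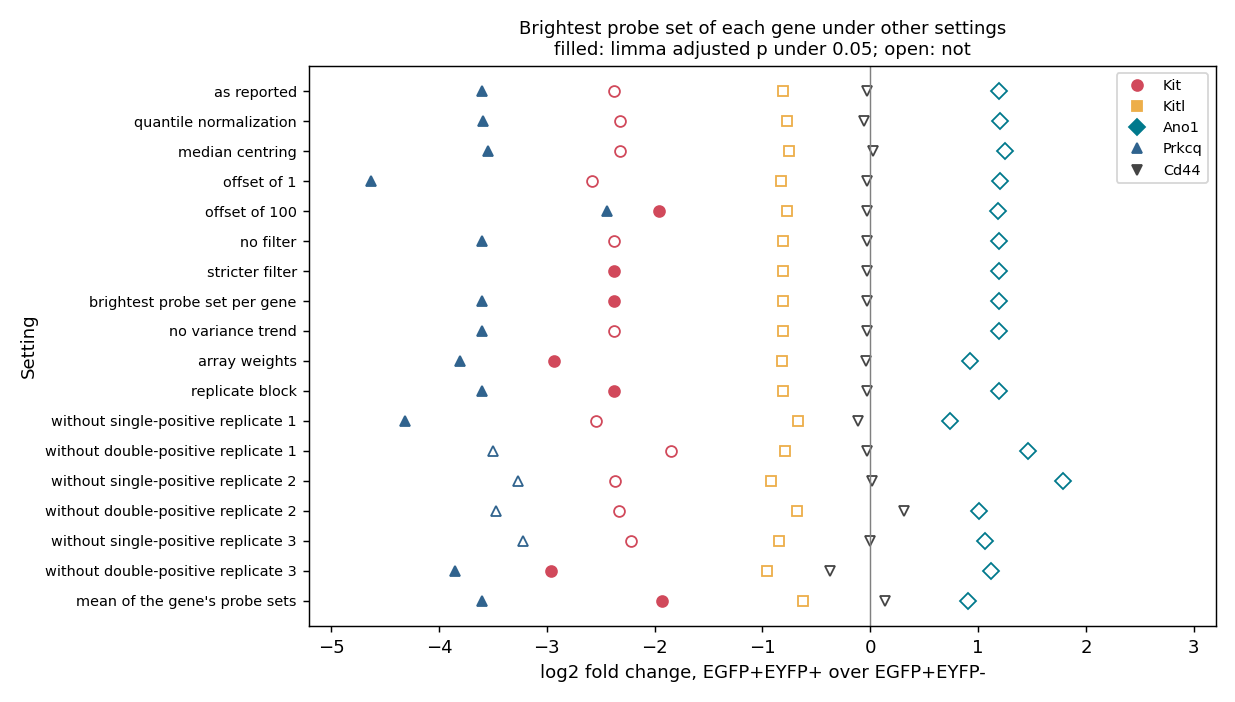
Difference between populations (log2 fold change, double-positive over single-positive) of the brightest probe set of Kit, Kitl, Ano1, Prkcq and Cd44, as reported and under each other setting; filled points passed a adjusted p of 0.05. Kit runs from -2.96 to -1.85 and is filled in 7 of 17 other settings, Ano1 runs from 0.74 to 1.79 and is filled in none, and Prkcq is open where 1 of 4 arrays is left out.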

How the data were processed

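RNeasy-extracted RNA of the 6 samples was amplified in 2 rounds and labelled with biotin, per the labels' protocols, which favours the 3' end of transcripts. The deposited values are intensities on a linear scale, made with GCOS per the submitters' processing notes, in a version not given in the sources used here. Trimming 2% at each end left a mean of 1500.01 on every array, so the authors had set arrays to a common level.

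After 64 control probe sets were left out, values were converted to log2(signal + 25.01). Array medians differed 1.36-fold and arrays were not rescaled. Probe sets with a mean above the 40th percentile entered a moderated linear model (limma 3.58.1, R 4.3.3) with a trend of variance on level. Tests were two-sided and p-values were adjusted by Benjamini-Hochberg over 27022 probe sets. The procedure was also run on simulated data with independent noise, and that outcome is not given here. Of 45037 probe sets, 34945 had 1 gene symbol, 932 several and 9160 none listed, and those with several were not named. The array table names no genome build. The largest number of identical values in any pair of arrays was 13.

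The members and lists were chosen with earlier results of these data known. Named were the members, Actg2 and Acta2, the genes of each related list with a called probe set where these were 5 or fewer, and the 3 nearest profiles of each member. Other names were chosen after values were seen. Alternatives concerned scaling, the added value, the filter, the choice of probe sets, the variance model, array weights, a replicate block and each array left out.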

Additional observations from a re-analysis of the deposited data

How the results depend on the processing

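Of the 5 brightest member probe sets, those of Kit, Kitl, Ano1 and Prkcq kept their sign under every alternative run. For Kit, Kitl and Prkcq the groups did not overlap, so most alternatives could not have turned it. Prkcq was too dim for the stricter filter (60th percentile), which gave no value. Kit passed in limma with an added value of 100 (log2 fold change -1.96, adjusted p = 0.0393), under the stricter filter (-2.38, 0.0342), with 1 probe set per gene (-2.38, 0.0258), with array weights (-2.93, 0.00934), as the mean of its probe sets (-1.93, 0.0298) and with the replicate block (-2.38, 0.0334). Deviations of same-numbered arrays correlated at 0.092, 0.0253 and -0.0654, which cannot show whether the replicate numbers pair the samples. The brighter Ano1 probe set had an adjusted p of 0.306 in limma as reported and 0.0683 with the replicate block. Without 1 array Kit ran from -2.96 to -1.85, Prkcq from -4.32 to -3.22 and Cd44 from -0.37 to 0.31; Cd44 was 0.024 under median centring and 0.14 as the mean of its probe sets. Without 1 array Kitl 1426152_a_at ran from -1.34 to 0.22, Kitl 1415854_at from -0.75 to 0.0045 and Cd44 1452483_a_at from -1.06 to 0.29.

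The 1 member probe set lower became 2 with an added value of 100, with 1 probe set per gene and with the replicate block, 3 with array weights, and 0 to 2 without 1 array. Over all probe sets, 272 were higher and 653 lower; array weights gave 483 and 1156, no variance trend gave 163 higher, and leaving out 1 array gave 123 to 337 higher and 262 to 784 lower. Probe sets of the related lists numbered 2 higher and 9 lower. Median centring gave 1 and 5, no filter 1 higher, no variance trend 1 and 5, array weights 14 lower, and leaving out 1 array 1 to 2 higher and 4 to 11 lower. The number of arrays limits the precision.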
